A study of Mus musculus with 6 samples.

Results

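Of 7008 segments of 2 kb of the mouse genome (build mm9) that held at least 20 tags, 281 held more than 20% of their tags on the strand with fewer tags, and these both-strand segments are described here. The series had a tag in 76521 such segments. PARE (parallel analysis of RNA ends, also called degradome sequencing) reads the first 20 or 21 nt of RNAs with a poly(A) tail and a 5′ monophosphate, and each such read is called a tag. Tags were assigned to a segment and a strand by their 5′ end, read counts were summed over all libraries, and reads listed at 2 locations were left out. The rule called 281 of 7008 segments (4.01%), and nothing is read from that share or from the strand balance itself, because the same counts chose the members.

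The libraries came from whole brain, lung, liver, kidney, ovary and spleen of adult mice of BALB-c background, with 1 library per tissue. All groups share the same genetic background, and the labels name no genotype, treatment or number of animals. With 1 library per tissue no test between tissues was possible. The 95% intervals below are all exact. Apart from those of the shares of convergent segments, they stand for counting error alone, as PCR copies of a molecule cannot be recognised. Unique tags numbered 29213 in ovary, 33382 in brain, 42939 in spleen, 78952 in liver, 162270 in kidney and 493121 in lung. Levels are given as CPM (tags per 1000000 unique tags), and where no tag was seen the level could have been as high as 102.7 CPM in ovary or 6.08 CPM in lung. The members held 15397 tags, of which 9664 came from lung. They took between 1.28% (liver) and 2.21% (spleen) of the tags of a library. Of 20 marker genes of the tissues and of blood, 10 had a start sequence to match, and 3 of them had a tag there. The tags at the start of Kap, an androgen-regulated gene of the kidney proximal tubule, were 1059 in kidney, 144 in lung, 3 in spleen, 2 in ovary, 1 in liver and 0 in brain. Gpx3 and H2-Aa, a kidney and a spleen marker, each had 1 tag, both from kidney, so the labels of the other tissues were not checked by their markers.

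Genes on opposite strands can meet tail to tail, so that their RNAs end close together or share sequence in antisense orientation, or they can start back to back and run apart. Most RNAs of protein-coding genes receive their poly(A) tail shortly after a signal, usually AATAAA or ATTAAA as written in DNA letters. RNAs with a 5′ monophosphate include products of decapping, of endonucleases and of microRNA processing, in which Drosha cuts a hairpin out of a longer transcript.

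The sequences of greatest use for seeing the arrangement are the tags that carry a poly(A) signal at the far end of each strand, together with the strongest tag ends and the microRNA hairpins found in 2 members. Each is given as RNA is read, 5′ to 3′ on its own strand, with mm9 coordinates. Capitals mark AATAAA or ATTAAA, where present, in the following 12 tags.

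Ndufb7 strand, plus, chr8:86095498-86095518: AATAAAagctttgggtcacct
Tecr strand, minus, chr8:86095599-86095619: aacAATAAAacctgcttaccc
Chromosome 12 plus, chr12:17291555-17291574: aaaaaAATAAAtacactcta
Chromosome 12 minus, chr12:17291537-17291556: ttaagttacAATAAAgtgct
Chromosome 13 plus, chr13:113658069-113658088: AATAAAaagcttgtgaacca
Chromosome 13 minus, chr13:113657986-113658005: AATAAAaatgtacaggtggg
Chromosome 2 plus, strongest end, chr2:26448146-26448166: tctaagtggtaaggtggggat
Chromosome 2 minus, strongest end, chr2:26448647-26448666: ggcctcagtcacaaatcact
Chromosome 9 plus, strongest end, chr9:99591396-99591416: cagggactttctggtgggtgg
Chromosome 9 minus, strongest end, chr9:99591222-99591242: ATTAAAacactgttaacatcc
Chromosome 5 minus, strongest end, chr5:21263102-21263121: atAATAAAactgaaaatact
Chromosome 8 plus, strongest end, chr8:73282474-73282493: acacacagtcAATAAAgcga

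In 2 members on chromosome 11 the plus strand held microRNA hairpins with tags. A minus-strand hairpin was also matched in each, Mir497b and Mir451b, with 0 tags on its own strand. The 3 mature microRNAs of the plus strand follow as RefSeq gives them in its GRCm38.p6 tables, with the seed (bases 2 to 8) in capitals. The seed is shared by miR-195a-5p and miR-497a-5p.

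miR-195a-5p: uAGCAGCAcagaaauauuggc
miR-497a-5p: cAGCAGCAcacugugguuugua
miR-451a: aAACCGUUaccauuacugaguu

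The tag below, with its letters shared with the Mir451a hairpin in capitals, was the strongest end beside miR-451a.

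Mir451a hairpin, plus, chr11:77886730-77886749: TTGCTGCTCCCACAaactgt

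Of the 281 members, 216 (76.9%, interval 71.5 to 81.7%) were convergent, 9 (3.20%) were divergent and 56 (19.9%) were interleaved. A segment was called convergent when at least 0.9 of all pairs of 1 plus-strand and 1 minus-strand tag had the plus-strand end at the lower coordinate, divergent when at most 0.1 had, and interleaved in between. The RNAs of a convergent segment run toward each other. The same arrangement was as common outside the members: of 148 other segments with at least 5 tags on the minor strand, 119 (80.4%, interval 73.1 to 86.5%) were convergent, 4 divergent and 25 interleaved. The arrangement is thus not particular to the members.

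**Figure D1:**
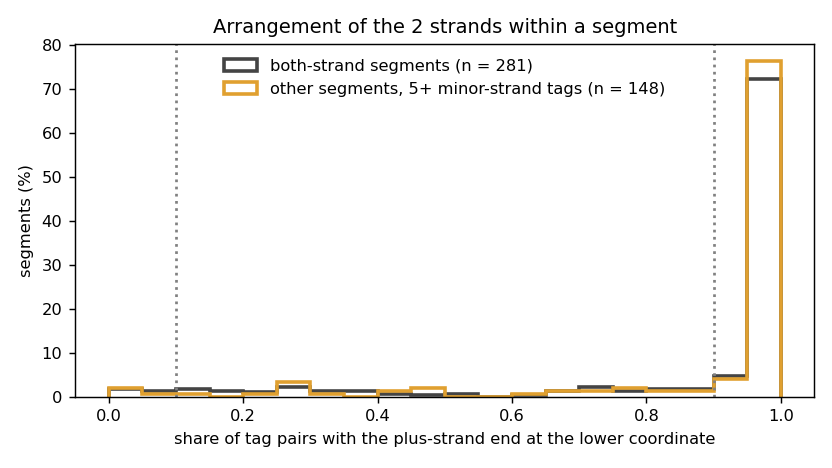
The share of plus-minus tag pairs with the plus-strand 5′ end at the lower coordinate (x axis, 0 to 1) is plotted against the percentage of segments (y axis) for 281 both-strand segments and 148 other segments with at least 5 minor-strand tags; dotted lines mark 0.1 and 0.9. Both outlines peak above 0.9, where 76.9% and 80.4% of the segments lie.

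Around the convergent segments, tags outside, which the rule did not use, lay mostly on the side each strand came from. In the 10 kb to the left of the convergent segments there were 6366 plus-strand tags, against 1612 in the 10 kb to the right. Minus-strand tags numbered 722 to the left and 5220 to the right. More plus-strand tags lay left than right in 173 of the 216, and more right than left in 29. More minus-strand tags lay right than left in 184, and more left than right in 17. Both strands had more tags on the side they came from in 149 of 216. The 56 interleaved segments leaned the same way, so the lean is not particular to the convergent ones. Their flanks held 4891 plus-strand tags left and 356 right, and 523 minus-strand tags left and 703 right. More plus-strand tags lay left in 43 of the 56 and right in 10. More minus-strand tags lay right in 39 and left in 13. Around the 9 divergent segments the flanking tags were 106 left and 322 right on the plus strand, and 214 left and 50 right on the minus strand. More plus-strand tags lay right than left in 6 of the 9 and left than right in 1. More minus-strand tags also lay right than left in 6, the side seen in the convergent segments, and left than right in 3. Of the 214 minus-strand tags to the left, 110 lay beside chr7:31016001-31018000 and 99 beside chr3:90318001-90320000, so the minus-strand sum does not describe most of the 9.

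**Figure D2:**
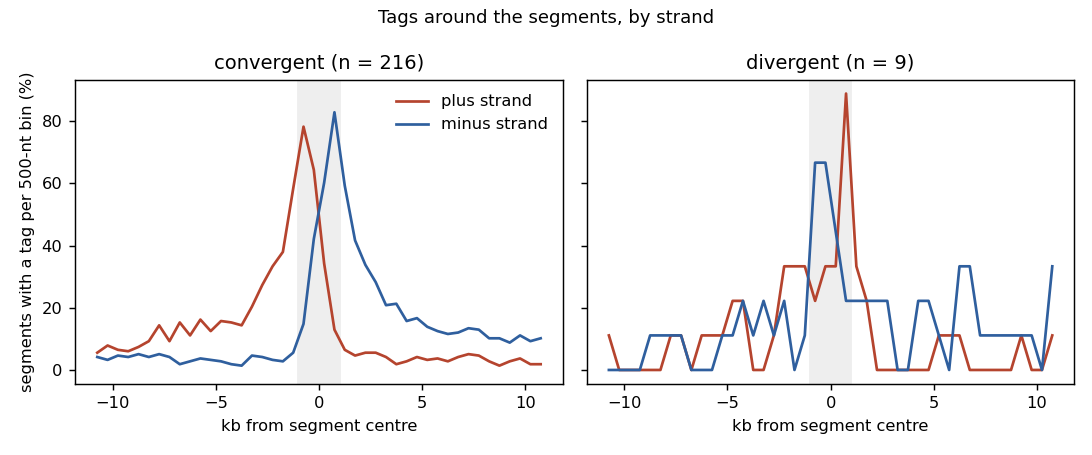
The percentage of segments with at least 1 tag per 500-nt bin (y axis) is plotted by distance in kb from the segment centre (x axis) for plus-strand and minus-strand tags, with the segment shaded. In the 216 convergent segments the plus-strand curve extends to the left and the minus-strand curve to the right; the 9 divergent segments give coarse curves.

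In 151 convergent segments the stretches covered by the tags of the 2 strands lay apart, with a median gap of 280 nt and a largest gap of 1540 nt. In the other 65 they overlapped, by a median of 62 nt and at most 980 nt. In the 56 interleaved segments the overlap had a median of 441 nt. The 9 divergent segments divided into 4 with a gap (median 350 nt) and 5 with an overlap (median 140 nt).

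A poly(A) signal lay within the tag in 10.1% of all tags, in 11.3% of the tags of the 7008 segments and in 13.3% of the tags of the members. The motifs were searched as AATAAA and ATTAAA in the tag's own strand only, and a match is a string of letters and not a shown site. At least 1 tag with such a string was present in 64.5% of the 7008 segments, 83.3% of the convergent members, 78.6% of the interleaved and 66.7% of the divergent. Members hold tags on 2 strands by the rule, and these sets were not matched for strands or tags. Per tag the convergent members stood at 13.7%, against the 11.3% of the 7008 segments. In 83 convergent members both strands held such a string. In 77 of those the last string of the plus strand lay before that of the minus strand, by a median of 426 nt, and in 6 the 2 had passed each other. Among the 18 interleaved members with a string on both strands, 15 had them crossed, by a median of 417 nt. The arrangement was called from the ends of these same tags, so the counts of crossed strings are not independent of it.

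With the libraries summed, the segment at chr12:17290001-17292000 shows a crossing by a few bases. It held 142 plus-strand tags (brain 4, lung 85, liver 12, kidney 18, ovary 8, spleen 15) and 58 minus-strand tags (lung 52, kidney 6, none elsewhere). Its farthest plus-strand signal lay 13 nt past the farthest minus-strand signal, and the stretches covered by tags overlapped by 64 nt. The end taken for the farthest plus-strand signal had 2 tags, both from spleen. That for the minus strand had 3 tags, all from lung. The plus strand was seen in all 6 libraries and the minus strand in lung and kidney alone.

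At chr13:113658001-113660000 the crossing was 64 nt. The plus strand held 103 tags (lung 85, kidney 8, spleen 7, liver 3) and the minus strand 48 (lung 26, kidney 10, brain 6, spleen 3, liver 2, ovary 1). Within the segment, plus-strand ends lay in 74 nt at its left edge, where 188 pairs of ends gave tags that overlapped in antisense. The adjoining segment to the left, chr13:113656001-113658000, held 35 plus-strand and 5 minus-strand tags. The 74 nt and the crossing thus describe this segment alone, with tags continuing beyond its edge. The strongest plus-strand end, with 10 tags, began exactly with AATAAA. So did 1 of the 2 minus-strand ends that tied for the most tags, with 5 each.

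Over all members, 804 pairs of ends gave overlapping antisense tags, and these lay in 68 segments. The segment at chr2:164664001-164666000 held 229 of them. By length of overlap the pairs ranged from 24 to 51 between 1 and 20 nt, and 30 had an overlap of 10 nt. No length of overlap stood out.

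**Figure D3:**
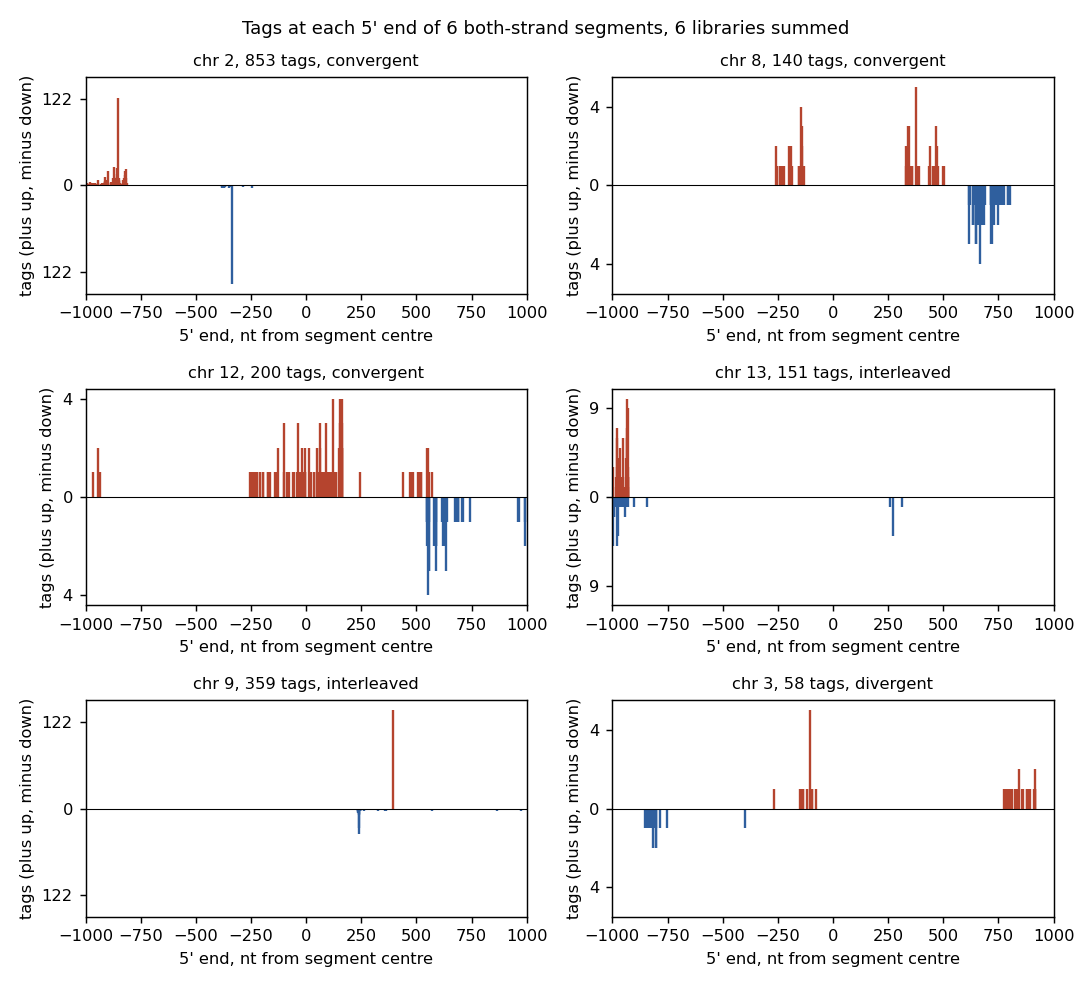
Tags at each 5′ end (y axis; plus strand up, minus strand down; scales differ) are plotted by distance in nt from the segment centre (x axis) for 6 segments, the 6 libraries summed. Plus-strand ends lie left of minus-strand ends on chromosomes 2 and 8, the strands meet and share a few positions on chromosome 12 and overlap on chromosome 13, and the order is turned on chromosome 3; on chromosome 9 a single plus-strand end holds 139 tags.

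Gene names could be given at 19 of the 281 members, because no annotation of mm9 was used here. Tags were matched to the start sequences of RefSeq genes, and a strand was named when the order of genes left 1 protein-coding gene that could have given it. This placed 1 gene on each strand in 10 members, and in all 10 by construction the plus-strand gene comes from the left and the minus-strand gene from the right. Of the 10, 7 were convergent by their tags and 3 were interleaved (Stk11 with Cbarp, Dhps with Wdr83, and Dedd with Nit1). A named strand may still hold tags of an RNA that the tables do not list.

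Ndufb7, a subunit of respiratory complex I, met Tecr, an enzyme of very-long-chain fatty acid elongation, at chr8:86094001-86096000. The Ndufb7 strand had 69 tags (brain 4, lung 38, liver 6, kidney 18, ovary 1, spleen 2). The Tecr strand had 71 (brain 11, lung 44, liver 5, kidney 8, ovary 2, spleen 1). Both strands were seen in every library, the stretches covered by tags lay 73 nt apart, and the farthest signals 118 nt apart. On the Tecr strand the level in brain was 3.69-fold that in lung, the next highest (interval 1.72 to 7.27).

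Oxa1l, which inserts proteins into the inner mitochondrial membrane, faced Slc7a7, a transporter of cationic amino acids of kidney and gut epithelium, at chr14:54988001-54990000. The Oxa1l strand had 48 tags (brain 4, lung 28, liver 3, kidney 6, ovary 6, spleen 1). The Slc7a7 strand had 37 (lung 11, liver 1, kidney 21, ovary 1, spleen 3, none in brain). In lung 71.8% of the tags were on the Oxa1l strand (interval 55.1 to 85.0%), and in kidney 22.2% (8.62 to 42.3%), so the majority strand differed between the 2 libraries.

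Stk11, the kinase LKB1 upstream of AMPK, faced Cbarp, a regulator of voltage-gated calcium channels, at chr10:79592001-79594000. The Stk11 strand had 50 tags (brain 3, lung 40, liver 3, kidney 2, ovary 1, spleen 1). The Cbarp strand had 22, of which 9 were in brain and 13 in lung, with none in the other libraries. The Stk11 strand held 75.5% of the tags in lung (interval 61.7 to 86.2%) and 25.0% in brain (5.49 to 57.2%). The neighbouring Gpx4, which reduces lipid hydroperoxides, faced Sbno2 at chr10:79518001-79520000 with 29 tags against 14. All 14 on the Sbno2 strand came from lung, and the Gpx4 strand had 18 in lung, 7 in kidney, 2 each in ovary and spleen and 0 in brain and liver.

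Rpl7a, a protein of the large ribosomal subunit, faced Surf1, an assembly factor of cytochrome c oxidase, at chr2:26768001-26770000. Of 69 tags on the Rpl7a strand, 52 shared a single 5′ end, at position 26768050, and that end was seen in 5 libraries (lung 38, spleen 5, liver 3, kidney 3, ovary 3, brain 0). The Surf1 strand spread 49 tags over 38 ends, with at most 4 at 1 end. Surf1 was the 1 gene placed at a member from a list of 21 genes known to lie next to or over a gene on the opposite strand. Start sequences were at hand for 15 of the 21, and 3 had a tag within them: Surf2 and Hspd1 with 2 tags each, both on the strand opposite to the gene, and Wrap53 with 1.

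Srsf2, an SR splicing factor, had 60 tags (lung 35, kidney 13, spleen 9, brain 2, liver 1) at chr11:116710001-116712000, against 38 on the strand of Mettl23, a methyltransferase. On the Mettl23 strand 24 of 38 tags shared 1 end. Dhps, which makes the first step of hypusine on eIF5A, and Wdr83 had 20 and 10 tags at chr8:87598001-87600000. Their signals crossed by 55 nt with the libraries summed. The end taken for the farthest plus-strand signal had 1 tag, from lung, and that for the minus strand 1 tag, from liver. The remaining named pairs held 6 to 25 tags a strand: Mad2l2, the REV7 subunit of polymerase zeta, with 8 against 22 for Fbxo6; Cldn22, a claudin of tight junctions, with 6 against 18 for Wwc2; and Dedd with 25 against 8 for Nit1. At these counts the libraries other than lung gave 0 to 6 tags a strand, too few to compare.

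In 9 further members 1 strand was named. On the plus strand these were Nhp2 (28 tags), a protein of H/ACA ribonucleoproteins, Baiap2 (9), Pomt1 (9), an O-mannosyltransferase, Smim27 (71), and Atg4d, an autophagy protease, in 2 neighbouring segments (10 and 47). On the minus strand they were Gatc (15), Pfdn6 (15), a prefoldin subunit, and 0610010K14Rik (20). The Smim27 segment, at chr4:40216001-40218000 and convergent by its tags, contained the matched starts of Smim27 and of Topors (minus strand). The Smim27 start window had 2 tags on the gene's strand and 0 opposite. That of Topors had 0 and 6. Among 9 divergent members, the segment at chr17:33960001-33962000 contained the matched starts of Rps28 (minus strand), a protein of the small ribosomal subunit, and Ndufa7 (plus strand), of complex I. Of its 31 tags, 8 were on the plus strand, and all 8 lay in the Ndufa7 start window and also opposite the Rps28 start window. The minus strand held 23, of which 0 lay in the Rps28 start window and 4 lay opposite Ndufa7. The divergent segment at chr3:90318001-90320000 contained the start of S100a13 (plus strand), with 0 tags on the gene's strand and 16 opposite to it. Starts were also matched inside some convergent members whose strands the gene order left unnamed. The start window of Krtcap3, at chr5:31554001-31556000, had 48 tags on the gene's strand and 1 opposite. That of Bricd5, at chr17:24610001-24612000, had 0 and 11.

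Both hairpin segments lay on chromosome 11 and were named after their values were seen. At chr11:70048001-70050000 the plus strand had 12 tags, of which 8 began at the first base of miR-195a-5p (lung 3, kidney 2, ovary 2, liver 1) and 3 at the first base of miR-497a-5p (lung 2, kidney 1). The 12th tag began at base 76 of the 84-nt Mir497 hairpin. So all 12 tags had their 5′ end in the Mir195a or the Mir497 hairpin. The minus strand, that of 0610010K14Rik, held 20 tags at 20 ends.

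At chr11:77886001-77888000 the plus strand had 55 tags, 23 of them in spleen, 25 in lung, 4 in brain, 2 in kidney, 1 in liver and 0 in ovary. On the CPM scale the spleen level, 535.6, was 4.47-fold the next highest, 119.8 in brain (interval 1.53 to 17.8). At the first base of miR-451a, a microRNA of red blood cell precursors, there were 6 tags (lung 4, kidney 2). The end printed above, at base 59 of the 72-nt hairpin, held 40 (lung 19, spleen 16, brain 4, liver 1). The minus strand had 28 tags at 25 ends (lung 17, liver 4, kidney 3, ovary 2, brain 1, spleen 1), so the spleen level of the plus strand was not seen there.

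The tissue levels of the 2 strands were compared next. A library was said to lead a strand if it had the highest CPM there, at least 10 tags, and a ratio over the second library whose interval lay above 1. Of 132 member strands that could be called, 33 were led (25.0%). This was below the 35.5% led over the 4366 strands of segments that could be called, a set that includes the member strands. A lead is easier to call on a strand with more tags. Tags per strand were not matched between the 2 sets, so nothing is read from the lower share. Brain led 7 (5.30% against 3.87%), spleen 9 (6.82% against 8.20%), kidney 6 (4.55% against 8.66%), lung 5 (3.79% against 4.26%), liver 5 (3.79% against 9.25%) and ovary 1 (0.758% against 1.28%). Both strands were led in 4 members, and in 3 of them by different libraries. Over all 7008 segments both strands were led in 5, and by different libraries in 4 (80.0%). Those 5 include the 4 members. Only 1 segment outside the members had both strands led, by different libraries, so the 80.0% is no separate background.

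The first of the 3, at chr2:26448001-26450000, had the most tags of all members. Its plus strand had 635 tags (lung 589, kidney 22, liver 7, ovary 7, spleen 7, brain 3), and its minus strand 218 (lung 138, liver 44, kidney 23, ovary 7, spleen 5, brain 1). Lung led the plus strand at 1194 CPM, 4.98-fold the 239.6 CPM of ovary (interval 2.40 to 12.5). Liver led the minus strand at 557 CPM, 1.99-fold the 279.9 CPM of lung (1.38 to 2.81). Of the minus-strand tags, 139 shared the end at 26448666, printed above, and 384 nt separated the strands. The segment lies between the matched Mir126b hairpin and the start of Med22, and neither strand could be named.

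The second, at chr5:21262001-21264000, was the most divided by tissue of the 3. Kidney gave 62 plus-strand tags and 1 minus-strand tag, spleen gave 0 and 37, and lung gave 31 and 4. Liver had 6 and 1, ovary 4 and 1, and brain 0 on both. Spleen stood at 862 CPM on the minus strand and below 69.9 CPM, the limit a count of 0 allows, on the plus strand. Of the 44 minus-strand tags 18 shared the end whose tag contains AATAAA, 15 of them in spleen, and 37 held a signal in all. The leads were 2.79-fold for kidney over ovary on plus (interval 1.04 to 10.6) and 25.2-fold for spleen over ovary on minus (interval from 4.25), where ovary had 1 tag.

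The third, at chr9:54452001-54454000, had 43 plus-strand tags (lung 18, brain 10, kidney 10, liver 3, ovary 1, spleen 1) and 22 minus-strand tags (ovary 15, brain 4, kidney 2, spleen 1, none in lung or liver). Brain led the plus strand (4.86-fold over kidney, interval 1.82 to 13) and ovary the minus strand (4.29-fold over brain, 1.37 to 17.7). This was the 1 member strand led by ovary. By distinct ends in place of tags this segment alone was called. With depths rescaled by TMM 4 segments were called, and of the 3 the first and the second were among them. In the fourth member with both strands led, at chr9:99590001-99592000, lung led both. Its plus strand was a single end with 139 tags, 138 of them from lung. Its minus strand had 220 tags at 96 ends, 219 of them from lung.

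The next 4 members are examples in which 1 library held most of the tags of 1 strand and at most 3 of the opposite strand. They are not a count over all members: at chr9:44054001-44056000, for instance, lung had 64 plus-strand and 3 minus-strand tags. At chr19:4156001-4158000 spleen had 45 of the 61 plus-strand tags (1048 CPM, 39.8-fold over lung, interval 21.1 to 80.3) and 1 of 31 on the minus strand. At chr8:73282001-73284000 brain had 44 of 76 plus-strand tags (1318 CPM, 7.70-fold over ovary, interval 3.06 to 24.9) and 1 of 30 on the minus strand. There 14 of the 17 tags at the strongest plus-strand end came from brain. At chr11:61486001-61488000 kidney had 76 of 97 minus-strand tags and 0 of 55 plus-strand tags, of which lung held 52. At chr4:141370001-141372000, a divergent member, spleen had 23 of 24 minus-strand tags and 3 of 35 plus-strand tags, of which lung held 25.

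The share of tags on the plus strand was compared between libraries within each segment, for libraries with at least 10 tags in it, a comparison chosen after the data had been seen. In 36 of 101 members (35.6%) the interval of the highest library lay wholly above that of the lowest. In 32 of the 36 the majority strand was turned, judged by the shares without their intervals. Among other segments with at least 5 minor-strand tags it did so in 12 of 95 (12.6%), but those hold at most 20% on the minor strand by construction, so the shares are not comparable as they stand. By distinct ends the count was 23 of 81, and with at least 20 tags per library 13 of 32. At chr2:164664001-164666000, where Ctsa or Pcif1 remained possible on plus and the minus strand was not named, the plus strand held 33.8% of 198 tags in lung but 75.0% of 20 in liver, 89.3% of 28 in kidney and 93.3% of 15 in spleen. At chr17:25034001-25036000 it held 5.26% of 19 tags in brain and 52.6% of 57 in lung.

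**Figure D4:**
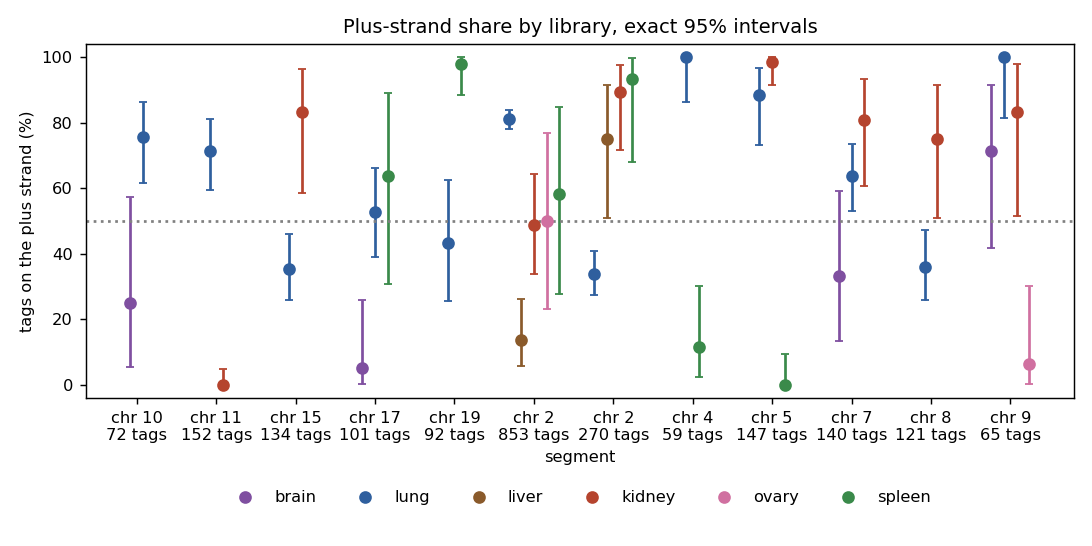
The percentage of tags on the plus strand (y axis) is plotted for 12 segments (x axis) and each library with at least 10 tags in the segment; bars are exact 95% intervals for counting error and the dotted line marks 50%. On chromosome 5 kidney sits at 98.4% and spleen at 0%, and on chromosome 19 spleen sits at 97.8% and lung at 43.3%.

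Summed over the members other than the 12 with equal strands (269 segments), the strand that was minor in the total held 31.8% of the tags in lung (interval 30.9 to 32.8%), 34.1% in brain, 34.5% in kidney, 36.2% in liver, 38.0% in ovary and 39.9% in spleen (36.7 to 43.1%). Lung set the minor strand in many members by its depth, and these shares are a description. Both strands had a tag in 274 members in lung, 205 in kidney, 99 in spleen, 93 in liver, 78 in ovary and 65 in brain. They did so in at least 2 libraries in 243 members and in all 6 in 14. On its own 1 library met the rule in 149 members; of the 178 with at least 20 tags in lung alone, 145 met it there. Without lung 99 segments met the rule, and of the 37 segments chosen by the naming rule 22 remained members. Those that did not include the segments at chr11:61486001-61488000 and chr12:17290001-17292000, where lung held 52 of 55 plus-strand and 52 of 58 minus-strand tags.

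Among segments with at least 100 tags, those just inside the limit were at chr11:115468001-115470000 (22.3% minor), chr19:5758001-5760000 (23.6%) and the chromosome 2 segment described above (25.6%). Those just outside were at chr17:34992001-34994000 (18.3%), chr2:155388001-155390000 (18.0%) and chr17:24732001-24734000 (17.6%). Most members were small: 182 had under 50 tags, 71 had 50 to 99 and 28 had at least 100. The plus strand was minor in 130, the minus strand in 139, and 12 were equal. By chromosome, the members were 36 of 588 segments on chromosome 11 (6.12%), 16 of 278 on chromosome 19 (5.76%), 20 of 348 on chromosome 17 (5.75%) and 2 of 173 on X (1.16%), beside 4.01% over all.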

How the data were processed

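PARE libraries of polyadenylated RNA from 6 adult mouse tissues were aligned to mm9 with Bowtie, per the submitters' processing notes; for the aligner, version and mismatch setting were not given in the sources used here. The deposited tables give, per the file headers and the authors' description, each distinct tag sequence with its strand, location and read count, joined to the sequence; the deposited score is a display value and was not used. Minus-strand sequences, written in reference orientation, were reverse complemented. Of the deposited listings, 30843 reads listed at 2 locations, counted as distinct sequences within a library, were left out. All 30843 had their 2 locations on opposite strands, and 16 had them within 2 kb of each other. Levels are counts per 1000000 unique tags (CPM). Python 3.11.15 with numpy 2.4.6, pandas 2.3.3, SciPy 1.17.1 and matplotlib 3.10.9 was used, and the scripts were tested on simulated data.

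The members and gene lists were chosen with earlier results of these data known. Shares carry Clopper-Pearson intervals and CPM ratios exact conditional binomial intervals; no test between tissues was made, and nothing is known of how tags vary between animals. The segments named were, by rule, the 10 with the most minor-strand tags in each arrangement, the 2 with the most tags in each library, those with strands led by different libraries, and those nearest the limit. Others were named for their genes or hairpins after their values were seen.

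No genome or annotation of mm9 was used. In place of the transcripts that the naming rule intended, tags were matched over 20 nt (16 nt at an edge) to RefSeq start sequences and hairpins (GRCm38.p6), which gave 1809 places of 1706 gene symbols. Start sequences covered 17491 of 21896 coding genes. A strand was named when the order of genes between matched starts, at most 10 coding genes, left 1 candidate. Alternatives were other segment widths and grids, limits, weights and libraries, distinct ends, and TMM-scaled depths.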

Additional observations from a re-analysis of the deposited data

Results flagged for a closer look

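In 13 of the segments named, the intervals of the plus-strand share lay apart between the highest and the lowest library. The majority strands of these 2 libraries were opposite by the shares alone. Some of the intervals reached across equal strands, such as 5.49 to 57.2% in brain for Stk11 against Cbarp. At chr19:4156001-4158000 the interval in lung was 25.5 to 62.6%. The intervals make no allowance for choosing the 2 extreme libraries. The difference between tissues was not tested, since each tissue has 1 library. The pairs of shares were as follows. On chromosome 5 (chr5:21262001-21264000) the plus strand held 98.4% of the tags in kidney and 0% in spleen. At chr4:141370001-141372000 it held 100% in lung and 11.5% in spleen, and at chr9:54452001-54454000 it held 100% in lung and 6.25% in ovary. At chr11:61486001-61488000 lung had 71.2% and kidney 0%. In the chromosome 2 segment with the most tags lung had 81.0% and liver 13.7%, and at chr2:164664001-164666000 spleen had 93.3% and lung 33.8%. At chr19:4156001-4158000 spleen had 97.8% and lung 43.3%. At chr17:25034001-25036000 spleen had 63.6% and brain 5.26%, and at chr7:112706001-112708000 kidney had 80.8% and brain 33.3%. At chr15:97622001-97624000 kidney had 83.3% and lung 35.5%, and at chr8:73120001-73122000 kidney had 75.0% and lung 36.0%. For Stk11 against Cbarp the shares were 75.5% in lung and 25.0% in brain, and for Oxa1l against Slc7a7 they were 71.8% in lung and 22.2% in kidney. The smallest library total behind these shares was 11 tags, in spleen at chr17:25034001-25036000.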

How the results depend on the processing

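The count of 281 members was 155 with 1 kb and 509 with 5 kb segments, 433 with at least 10 and 99 with at least 50 tags, 432 with over 10% and 165 with over 30% on the minor strand, and 99 without lung. It stayed between 277 and 313 with a shifted grid, reads at 2 locations kept, distinct ends or equal weights. Convergent segments, 216, became 115 (1 kb), 397 (5 kb), 85 (at least 50 tags), 123 (over 30%) and 86 (no lung). Divergent segments, 9, became 19 (5 kb), 2 (at least 50 tags), 3 (no lung) and 18 (pair shares of 0.8 and 0.2). Interleaved segments, 56, became 30 (1 kb), 93 (5 kb), 12 (at least 50 tags), 36 (over 30%), 10 (no lung) and 37 (pair shares of 0.8 and 0.2). Segments with strands led by different libraries, 3, became 1 with distinct ends. Members with plus shares apart, 36, became 23 with distinct ends and 13 with at least 20 tags per library. The minor-strand share became, as a median over segments, 20.0% in brain (12 segments) and liver (25), 33.3% in lung (261), 29.7% in kidney (84) and 50% in ovary (3). It became 32.9% in lung without its largest segment. With the minor strand fixed without the library the share was 47.1% for lung, 48.1% for spleen, 46.2% for kidney, 40.7% for liver and 40.5% for brain. The cause of these changes was not tested beyond what fewer or more segments imply. Depth limits ovary, brain and spleen most. No paired analysis was possible because each tissue has 1 library, so the groups share fewer than 2 replicate numbers.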
